A study of Arabidopsis thaliana with 24 samples.

Results

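SPL genes encode SQUAMOSA PROMOTER BINDING PROTEIN-LIKE transcription factors, and 10 of them that carry a target site of the microRNA miR156 are described here in seedlings of Arabidopsis thaliana: SPL2 (AT5G43270), SPL3 (AT2G33810), SPL4 (AT1G53160), SPL5 (AT3G15270), SPL6 (AT1G69170), SPL9 (AT2G42200), SPL10 (AT1G27370), SPL11 (AT1G27360), SPL13A (AT5G50570) and SPL15 (AT3G57920). They were taken by gene identifier, and all 10 were listed among the 23202 genes of the Col-0 table and the 23059 genes of the Ler table. The study compared diploid (2x) with tetraploid (4x) seedlings of the ecotypes Col-0 and Ler, its question being flowering time and the trimethylation of histone H3 at lysine 27 after genome doubling. RNA was sequenced in 8 libraries, 2 in each of the 4 groups, from seedlings 2 weeks old grown in soil at 22 °C under 16 h or 8 h of light. Neither the day length of these libraries nor the way the tetraploid lines were made is stated in the labels. Ploidy and any other difference between a diploid and a tetraploid line cannot be told apart here. No transgene or mutation is named for any group.

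In Arabidopsis, miR156 is abundant in young plants and lowers its SPL targets by cleaving their transcripts and blocking their translation. As the plant ages miR156 declines, SPL levels rise, and the shoot moves from juvenile to adult leaves and becomes able to flower. SPL9 also switches on a precursor of miR172, which lowers AP2-like repressors of flowering. SPL transcripts thus stand between plant age and the floral integrators SOC1, FUL, LFY and AP1.

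The deposited tables hold a mean and a fold change per gene but no column per library. Reads per library were recovered from the 15 digits of each mean, since only whole reads in the 4 libraries can add up to it. Each of the 10 genes gave exactly 1 solution in each ecotype, and the ratio of the recovered means lay within 0.0077 (log2) of the deposited fold change. The libraries of a ploidy are called a and b, a being the one with the larger size factor, because their replicate numbers could not be recovered. Size factors ran from 0.915 to 1.14, and a Col-0 library held 22343366 normalized reads on average, a Ler library 22138532. Normalized reads are not corrected for transcript length, so levels are compared within a gene only. Fold changes are read as tetraploid over diploid, which the tables do not state and which was inferred, and ± is the authors' standard error (SE).

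In Col-0, 3 of the 10 genes fell in tetraploid seedlings by the authors' deposited table (adjusted p under 0.05), namely SPL4, SPL13A and SPL2, and none rose. Across all 21420 genes with an adjusted p in that table, 15.4% were called, 8.23% lower and 7.13% higher. In Ler, 1 of the 10 fell by the authors' deposited table, SPL11, where 5.1% of 18683 genes were called, 1.91% lower and 3.19% higher. For the 10 genes the median log2 fold change came to −0.39 (Col-0) and −0.44 (Ler), beside −0.003 and −0.006 over all genes with an adjusted p. Over all genes with a mean of at least 100 normalized reads it was 0.004 and −0.017. SPL3, SPL4 and SPL5 had means under 100 in both tables and are part of the medians of the 10. When each table's statistics were scaled to their own spread, only SPL13A kept its call in Col-0 (adjusted p = 0.046), while SPL4 gave 0.075, SPL2 0.21 and, in Ler, SPL11 0.23. Nothing in the labels says that the 2 libraries of a group came from separate cultures, so these p-values measure the spread between libraries, which may be technical. RNA came from seedlings, in which fewer cells of a type and less RNA per cell cannot be told apart.

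**Figure D1:**
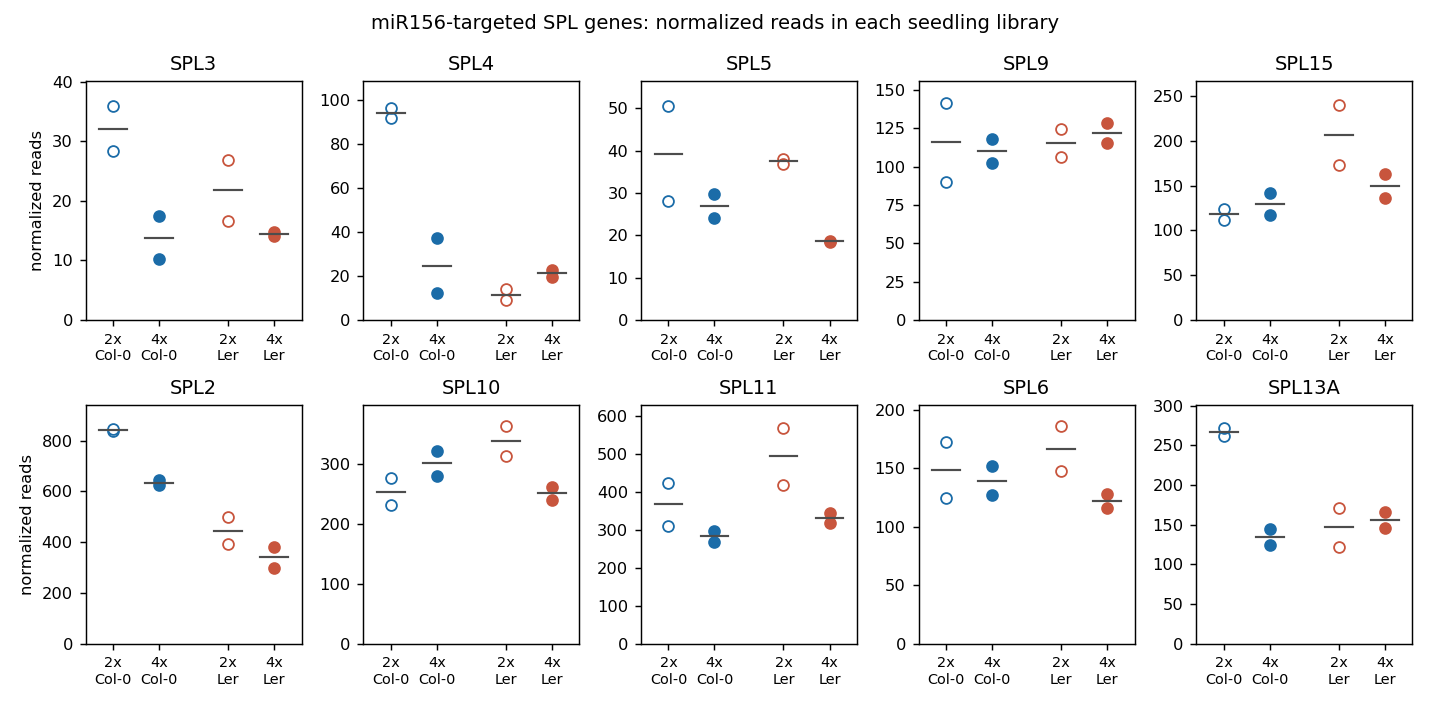
Normalized reads (y axis, from 0, one scale per gene) of the 10 genes in each library, grouped by ploidy and ecotype. Open points are diploid and filled points tetraploid libraries, and the line is the mean of the 2 libraries. SPL4, SPL13A and SPL2 sit lower in both tetraploid Col-0 libraries, and SPL4 and SPL13A do not sit lower in tetraploid Ler.

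SPL3, SPL4 and SPL5 encode small proteins made of little more than the DNA-binding domain, and they act mainly at the floral transition, where FT and FD activate them. SPL4 gave 91.9 and 96.3 normalized reads in the diploid Col-0 libraries and 12.3 and 37.2 in the tetraploid ones. The groups did not overlap, and the tetraploid libraries themselves stood far apart. The authors' deposited table gave a 3.83-fold lower level in tetraploid Col-0 (log2 fold change −1.94 ± 0.49, adjusted p = 0.00089, n = 2 libraries each). Behind those tetraploid values were 12 reads in library a (95% Poisson interval 6.2 to 21.0, counting error only) and 34 in library b (23.5 to 47.5). Without tetraploid library a the log2 change was −1.34, and without library b it was −2.94.

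In Ler, SPL4 gave 13.9 and 8.97 normalized reads in diploids and 19.6 and 22.8 in tetraploids. Both tetraploid libraries were higher here, from 9 to 21 reads each, and the authors' deposited table did not call the difference (0.89 ± 0.73, adjusted p = 0.66). The Ler minus Col-0 difference of the SPL4 responses was 2.82 ± 0.88 on the log2 scale (95% interval 1.11 to 4.54), past the threshold in a Wald test adjusted over all shared genes (adjusted p = 0.019). Without the tetraploid Col-0 library a that difference was 2.23, and without library b it was 3.83. The levels themselves were 8.22-fold higher in diploid Col-0 than in diploid Ler and 1.16-fold higher in tetraploid Col-0 than in tetraploid Ler. The 2 tables were normalized separately, so these ratios carry no test. Whether reads of both ecotypes were mapped and counted alike was not tested for SPL4 or any other gene compared between ecotypes. The listed identifiers were not all the same, since 21361 were shared of 23202 for Col-0 and 23059 for Ler. MED12 and VAL2, with means of 1131 and 591 in Col-0, were not found for Ler by their identifiers. For SPL4, both diploid Col-0 libraries lay above all others. The tetraploid Col-0 libraries spanned those of tetraploid Ler and overlapped with diploid Ler, while tetraploid Ler lay above diploid Ler.

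SPL3 was a low gene, with 35.9 and 28.4 normalized reads in diploid and 10.2 and 17.5 in tetraploid Col-0. Its tetraploid libraries lay below its diploid ones without overlap, but the authors' deposited table did not call it (−1.22 ± 0.67, adjusted p = 0.26). Ler seedlings gave 16.7 and 26.9 in diploids and 14.7 and 14.1 in tetraploids (authors' deposited table, −0.59 ± 0.69, adjusted p = 0.81). The tetraploid Ler libraries were again the lower pair. Its levels ran from diploid Col-0 through diploid Ler and tetraploid Ler to tetraploid Col-0 by their means, and tetraploid Col-0 overlapped with both Ler groups.

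SPL5 gave 28.0 and 50.7 normalized reads in diploid and 29.7 and 24.0 in tetraploid Col-0, which overlapped (authors' deposited table, −0.54 ± 0.57, adjusted p = 0.67). The Ler values were 38.0 and 36.9 in diploids and 18.7 and 18.5 in tetraploids. This was a 2.02-fold lower tetraploid level with no overlap, and was not called by the authors' deposited table (−1.01 ± 0.56, p = 0.069, adjusted p = 0.38). By their means the order was diploid Col-0, diploid Ler, tetraploid Col-0 and tetraploid Ler. Diploid Col-0 overlapped with diploid Ler and with tetraploid Col-0, and tetraploid Ler lay below all others. At 10 to 50 reads per library, the standard errors of SPL3 and SPL5 allowed no call of a 2-fold change.

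SPL9 and SPL15, a pair of close paralogs, slow the making of new leaves and promote the juvenile to adult change, and SPL15 also drives flowering in the shoot meristem. SPL9 gave 141.8 and 90.2 normalized reads in diploid Col-0, 102.3 and 118.0 in tetraploid Col-0, 124.3 and 106.6 in diploid Ler, and 128.7 and 115.2 in tetraploid Ler. All 4 groups overlapped with their neighbours in order. The authors' deposited tables gave −0.08 ± 0.32 in Col-0 (95% interval −0.71 to 0.55) and 0.08 ± 0.28 in Ler (−0.47 to 0.62), with adjusted p = 0.94 and 0.96.

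SPL15 gave 124.3 and 111.4 normalized reads in diploid Col-0 and 142.2 and 116.9 in tetraploid Col-0, which overlapped. For Ler the values were 240.3 and 172.3 in diploids and 163.1 and 135.9 in tetraploids, which did not. Neither was called in the authors' deposited tables (Col-0 0.14 ± 0.29, adjusted p = 0.87, and Ler −0.46 ± 0.25, adjusted p = 0.36). Diploid Ler stood 1.75-fold above diploid Col-0 for this gene, and both diploid Ler libraries exceeded both diploid Col-0 libraries. Tetraploid Ler, tetraploid Col-0 and diploid Col-0 followed in that order, each overlapping with the next.

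SPL2, SPL10 and SPL11 form another clade, which shapes adult and cauline leaves. SPL2 gave 838.3 and 844.0 normalized reads in diploid and 623.9 and 643.6 in tetraploid Col-0, tight pairs far apart. The authors' deposited table called it 1.33-fold lower (−0.41 ± 0.12, adjusted p = 0.0094). Ler libraries held 498.3 and 392.5 in diploids and 299.6 and 382.7 in tetraploids, and both tetraploid libraries were lower. The authors' deposited table gave a like value there that was not called (−0.39 ± 0.19, p = 0.039, adjusted p = 0.28). The responses in Ler and Col-0 differed by 0.02 ± 0.22 (95% interval −0.42 to 0.46, adjusted p = 0.99, Wald test). Every Col-0 library lay above every Ler library for SPL2, and the diploid means differed 1.89-fold. Across 13324 genes with a mean of at least 100 in both tables, the log2 ratio of the means had a standard deviation of 0.384 about a median of 0.030.

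SPL11 gave 568.8 and 419.4 normalized reads in diploid Ler and 343.9 and 318.5 in tetraploid Ler. It was the gene called in Ler, 1.49-fold lower by the authors' deposited table (−0.58 ± 0.18, adjusted p = 0.035). The diploid libraries differed more from each other than the tetraploid ones did, and without diploid library a the log2 change was −0.34. In Col-0 it gave 311.5 and 424.5 in diploids and 269.0 and 297.2 in tetraploids, also without overlap and not called by the authors' deposited table (−0.38 ± 0.20, p = 0.060, adjusted p = 0.23). The ecotypes' responses differed by −0.20 ± 0.27 (adjusted p = 0.84, Wald test). Levels ran from diploid Ler through diploid Col-0 and tetraploid Ler to tetraploid Col-0, and only the last step was free of overlap.

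SPL10 lies next to SPL11 in gene order on chromosome 1. It gave 231.0 and 275.6 normalized reads in diploid and 321.1 and 279.7 in tetraploid Col-0, higher in both tetraploid libraries. Ler showed 361.9 and 312.8 in diploids and 261.3 and 239.2 in tetraploids, lower in both. The authors' deposited tables called neither value (Col-0 0.25 ± 0.20, adjusted p = 0.53, and Ler −0.43 ± 0.19, p = 0.023, adjusted p = 0.20). Diploid Ler overlapped with tetraploid Col-0 at the top of the order, and diploid Col-0 with tetraploid Ler at the bottom. The difference between ecotypes was −0.68 ± 0.28 (95% interval −1.22 to −0.14), which did not pass after adjustment over all shared genes (adjusted p = 0.12, Wald test).

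SPL6, which acts in resistance mediated by an immune receptor, gave 124.3 and 172.2 normalized reads in diploid and 126.8 and 151.9 in tetraploid Col-0, which overlapped. In Ler it gave 185.6 and 147.4 in diploids and 127.7 and 116.3 in tetraploids, which did not. The authors' deposited tables called neither (Col-0 −0.09 ± 0.28, adjusted p = 0.93, and Ler −0.45 ± 0.26, adjusted p = 0.42). Neighbouring groups overlapped along its whole order of levels.

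SPL13A, which acts in the juvenile to adult change together with its near-identical copy SPL13B, had the smallest adjusted p of the 10 in Col-0. It gave 261.6 and 271.5 normalized reads in diploid and 145.2 and 124.6 in tetraploid Col-0, with no overlap. The authors' deposited table called it 1.97-fold lower (−0.98 ± 0.23, adjusted p = 0.00029). In Ler it gave 170.7 and 122.5 in diploids and 166.0 and 145.7 in tetraploids, which overlapped (authors' deposited table, 0.09 ± 0.26, adjusted p = 0.95). The responses differed by 1.07 ± 0.35 (95% interval 0.38 to 1.75, adjusted p = 0.030, Wald test). Diploid Col-0 was the high group, and the other groups overlapped with their neighbours.

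Reads of SPL13A and SPL13B may be shared, since the sources used here do not say how reads matching several places were counted, and each copy's value is therefore uncertain. SPL13B gave 251.1 and 244.2 normalized reads in diploid Col-0, 135.0 and 121.3 in tetraploid Col-0, 165.2 and 84.7 in diploid Ler and 157.2 and 137.0 in tetraploid Ler. The authors' deposited tables called it lower in Col-0 (−0.95 ± 0.24, adjusted p = 0.00072, and 0.068 against the table's own spread) and did not call it in Ler (0.23 ± 0.31, adjusted p = 0.84). Summed over both copies, diploid Col-0 had 512.8 and 515.7 normalized reads and tetraploid Col-0 280.2 and 245.9. The sum was thus 1.95-fold higher in diploid Col-0. A split of shared reads would not alter such a sum, but counting them at both copies or leaving them out would. In Ler the sum was 335.9 and 207.2 in diploids and 323.2 and 282.6 in tetraploids, which overlapped.

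**Figure D2:**
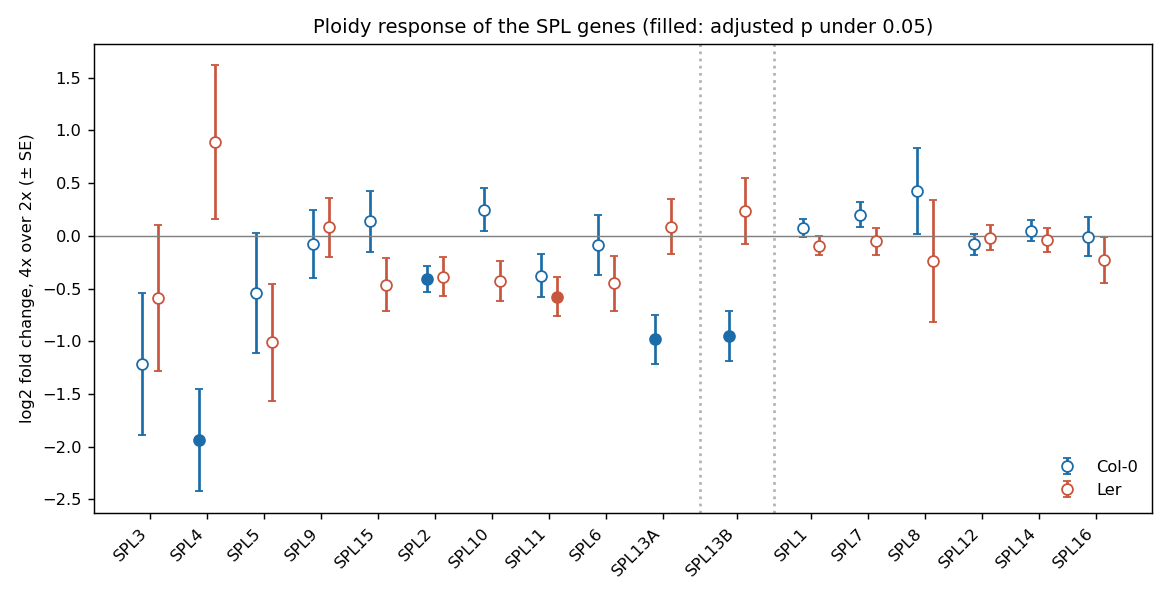
Log2 fold change, tetraploid over diploid, of each SPL gene in the authors' deposited tables (points) with its standard error (bars), for Col-0 in blue and Ler in red. Filled points have an adjusted p under 0.05. Left of the dotted lines are the 10 genes described here, between them is SPL13B, and right of them are 6 SPL genes without a miR156 site, all with open points between −0.24 and 0.43.

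Between ecotypes, the response of 2 of the 10 genes differed, SPL4 and SPL13A, and both were lower in tetraploid Col-0 (Wald test, adjusted p under 0.05). Over all 21361 shared genes 8.71% were called in this test. Against the spread of the difference statistics themselves, neither kept its call (adjusted p = 0.16 for SPL4 and 0.20 for SPL13A). The other 8 genes gave differences from −0.68 to 0.63, and the intervals of SPL3 and SPL5 were wide (−1.27 to 2.52 and −2.03 to 1.09). SPL2, called in Col-0, and SPL11, called in Ler, showed no called difference between ecotypes.

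Counted by library, 5 of the 10 genes were lower in both tetraploid Col-0 libraries than in both diploid ones, beside 32.2% of 16236 genes with recovered reads. In Ler it was 7 of 10, beside 26.8% of 15615 genes. SPL2, SPL3 and SPL11 were lower in this way in both ecotypes, 3 of 10 beside 9.55% of 14655 genes. Of the 10 genes 1 was higher in both tetraploid libraries in each ecotype, SPL10 in Col-0 (31.1% of all genes) and SPL4 in Ler (27.1%). The 10 genes were not independent of each other, since they share libraries and, in part, regulators.

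Summed over the 10 genes, normalized reads were 2189 and 2365 in diploid and 1783 and 1811 in tetraploid Col-0. In Ler the sums were 2219 and 1746 in diploids and 1543 and 1509 in tetraploids. The sums were lower in both tetraploid libraries of either ecotype, and diploid Ler library a stood above library b. These sums weigh SPL2 and the other high genes most.

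In Ler the diploid libraries differed from each other across the SPL genes. Library a exceeded library b in 9 of the 10, all but SPL3, and by at least 1.2 times in 6 of 10, beside 13.7% of all genes with recovered reads. The median log2 ratio of a over b was 0.34 for the 10 genes and 0.012 over 11236 genes. In diploid Col-0 library a exceeded library b in 3 of 10, with a median of −0.06, and by at least 1.2 times in 2 of 10, beside 14.3% of all genes. Without diploid Ler library a the median log2 fold change of the 10 genes in Ler was −0.24, and without library b it was −0.54. The part of this library difference in the Ler values was not tested.

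**Figure D3:**
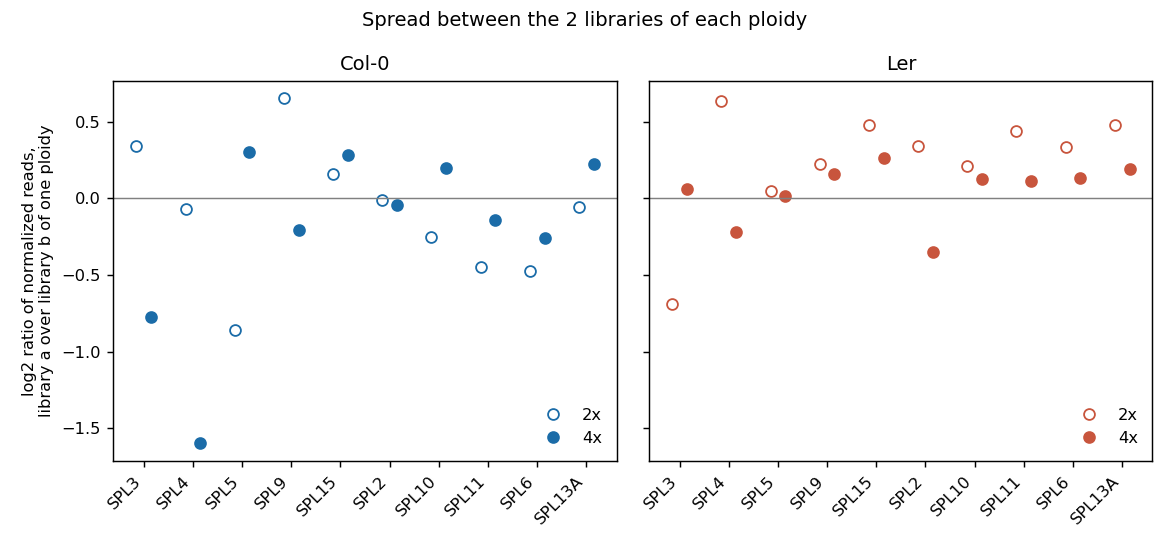
Log2 ratio of normalized reads between library a and library b of the same ploidy (y axis) for each of the 10 genes, in Col-0 and Ler. Open points are the diploid and filled points the tetraploid pair. In diploid Ler 9 of 10 points are above 0, and the SPL4 point of tetraploid Col-0 lies lowest, at −1.60.

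The SPL genes without a miR156 site served as the nearest relatives. Of SPL1, SPL7 (a copper regulator), SPL8, SPL12, SPL14 and SPL16, the authors' deposited tables called 0 of 6 in either ecotype, and 0 had an unadjusted DESeq2 p under 0.05. Over all genes, 15.4% (Col-0) and 5.1% (Ler) were called. The log2 fold changes of these 6 genes had a median of 0.06 (Col-0) and −0.07 (Ler). SPL12, for example, gave 1253 and 1251 normalized reads in diploid Col-0 and 1189 and 1180 in tetraploid Col-0. Whether the 2 sets of SPL genes differ was not tested.

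Some of the genes around SPL13A on chromosome 5 were also called lower in tetraploid Col-0. Of the 10 listed genes on either side, 19 had an adjusted p in the authors' deposited table for Col-0, and 9 of these were called, all lower, SPL13B among them, beside 8.23% called lower of all genes. In Ler 0 of 12 were called in the authors' deposited table and 1 had an unadjusted DESeq2 p under 0.05. The nearest gene on either side gave −0.88 ± 0.29 (AT5G50562, adjusted p = 0.021) and −0.69 ± 0.18 (AT5G50580, named SAE1B, adjusted p = 0.0023) in the authors' deposited table for Col-0. AT5G50640 gave −3.62 ± 0.22 (adjusted p = 1.5e-57) and AT5G50650 −2.72 ± 0.30 in the same authors' deposited table, both larger in size than SPL13A. In Ler AT5G50640 gave −0.38 ± 0.19 (authors' deposited table, adjusted p = 0.30).

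The stretch that runs from the genes before SPL13A to the genes after SPL13B held 28 genes with an adjusted p in Col-0 besides SPL13A and SPL13B, of which the authors' deposited table called 9 lower and 1 higher. For Ler the authors' deposited table called 1 of 15 there, AT5G50740, lower. AT5G50580 and AT5G50680 carry the same symbol and may share reads, so that their values are uncertain in the same way as those of SPL13A. AT5G50600 and AT5G50700 also share a symbol (HSD1). In Ler AT5G50590 and AT5G50690 gave the same mean (2.14) and log2 fold change (−4.49). Other genes of the stretch may be copies too, so the counts of called neighbours may hold the same reads more than once. The part of the stretch in the SPL13A response was not tested. For SPL4, 4 of 20 tested neighbours were called in Col-0, 3 higher and 1 lower, and 3 of 16 in Ler, in the authors' deposited tables. The remaining 8 genes had 0 to 4 called neighbours in either ecotype. Over all genes, 15.4% were called in Col-0 and 5.1% in Ler.

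**Figure D4:**
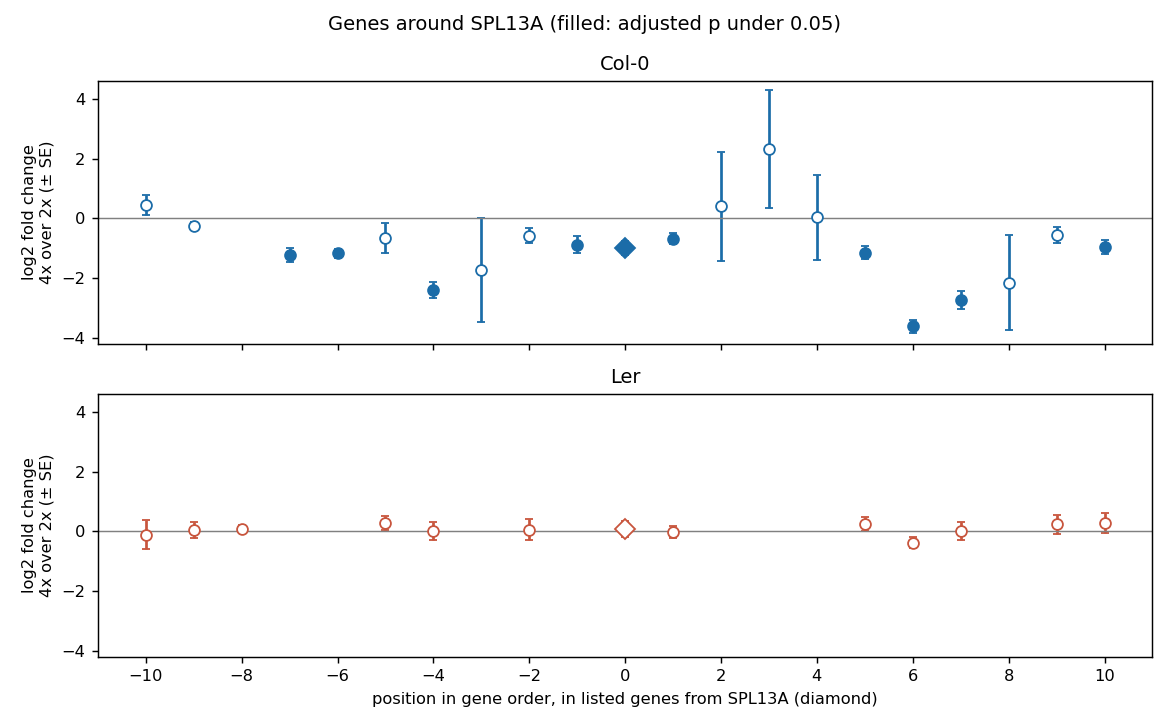
Log2 fold change, tetraploid over diploid, with its standard error (y axis) for SPL13A (diamond at 0) and the listed genes on either side in gene order (x axis, in genes), from the authors' deposited tables for Col-0 (top) and Ler (bottom). Filled symbols have an adjusted p under 0.05. In Col-0 9 neighbours are filled and all lie below 0, and in Ler none is filled.

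Of the direct targets of SPL proteins, DFR was called in opposite directions in the ecotypes and SOC1 was called in Col-0. In Col-0 the authors' deposited table called 2 of 7 lower and none higher, beside 8.23% and 7.13% of all genes. SOC1, a floral integrator activated by SPL9, gave 198.6 and 191.5 normalized reads in diploid and 123.8 and 94.0 in tetraploid Col-0 (authors' deposited table, −0.84 ± 0.27, adjusted p = 0.014). In Ler it gave 268.2 and 265.0 in diploids and 309.5 and 297.9 in tetraploids (authors' deposited table, 0.19 ± 0.19, adjusted p = 0.74). The difference was 1.03 ± 0.32 (adjusted p = 0.022, Wald test). Against the table's own spread, SOC1 in Col-0 (adjusted p = 0.25), its difference (0.17) and DFR in Col-0 (0.37) lost their calls.

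DFR, an enzyme of anthocyanin synthesis that SPL9 holds down, fell in Col-0 (−0.90 ± 0.32, adjusted p = 0.036) and rose in Ler (0.73 ± 0.11, adjusted p = 2.4e-09) in the authors' deposited tables. In Col-0 the standard error of DFR was large for its mean of 2561 normalized reads, since SPL1, at 2513, had 0.085. No reads per library were recovered for DFR. The responses of DFR differed by 1.63 ± 0.34 (adjusted p = 5.9e-05, Wald test). SPL9 itself was called in neither ecotype. FUL, a MADS-box promoter of flowering, gave 42.0 and 32.4 normalized reads in diploid and 17.4 and 15.3 in tetraploid Col-0 without overlap, and was not called in the authors' deposited table (−1.19 ± 0.61, adjusted p = 0.22). In Ler FUL gave 0.18 ± 0.41 (authors' deposited table, adjusted p = 0.93). The trichome repressors TRY and TCL1, activated by SPL9, were not called in either of the authors' deposited tables (TRY −0.02 ± 0.21 and −0.22 ± 0.16, TCL1 0.71 ± 0.99 and 0.24 ± 0.49, Col-0 first). LFY had a mean of 4.43 and 6.91 normalized reads and AGL42 of 2.64 and 3.08 in the authors' deposited tables, too low to show a 2-fold change. AP1 was listed for Ler alone, at a mean of 0.504 in the authors' deposited table.

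The AP2-like repressors, which miR172 lowers downstream of SPL9, rose in Col-0 for 3 of 6 genes in the authors' deposited table: SMZ (0.59 ± 0.13, adjusted p = 6.4e-05), TOE2 (0.48 ± 0.14, adjusted p = 0.0066) and SNZ (0.41 ± 0.10, adjusted p = 0.00064). Over all Col-0 genes, 7.13% were called higher and 8.23% lower. SMZ gave 623.0 and 564.3 normalized reads in diploid and 870.3 and 918.9 in tetraploid Col-0. AP2, TOE1 and TOE3 gave 0.21 ± 0.17, 0.03 ± 0.08 and −0.25 ± 0.36 there in the authors' deposited table, none called. In Ler 0 of 5 were called in the authors' deposited table and 0 had an unadjusted DESeq2 p under 0.05, with values from −0.15 (SMZ) to 0.45 (TOE3). Over all Ler genes, 5.1% were called. The difference between ecotypes was −0.74 ± 0.20 for SMZ (adjusted p = 0.0040) and −0.54 ± 0.15 for SNZ (adjusted p = 0.0063, Wald test). Against each table's own spread only SMZ in Col-0 kept its call, while TOE2 gave an adjusted p of 0.18, SNZ 0.062, and the differences of SMZ and SNZ 0.055 and 0.074. TOE2 was not analysed here in Ler. Precursors of miR156, miR157 and miR172 were not analysed here in either ecotype.

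Of 7 genes of the microRNA machinery, the authors' deposited tables called 0 in either ecotype, while 4 in Col-0 and 2 in Ler had an unadjusted DESeq2 p under 0.05. Over all genes, 15.4% were called in Col-0 and 5.1% in Ler. The share of all genes with such an unadjusted p was not computed, so these counts of 4 and 2 have no background beside them. DCL1, which cuts microRNA precursors, gave 0.21 ± 0.11 in Col-0 and −0.31 ± 0.14 in Ler in the authors' deposited tables, and its partner SERRATE gave 0.25 ± 0.10 and −0.25 ± 0.12. Both responses differed between ecotypes (DCL1 −0.52 ± 0.18, adjusted p = 0.046, and SERRATE −0.50 ± 0.16, adjusted p = 0.019, Wald test). For DCL1 the call was lost when fold changes were recentred on the median gene (adjusted p = 0.061), and neither call held against the spread of the statistics (0.23 and 0.14).

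Among 20 regulators of MIR156 or SPL genes, 3 rose and 2 fell in Col-0 in the authors' deposited table. Over all its genes 7.13% were called higher and 8.23% lower. FLC, a repressor of flowering that binds SPL15, gave 176.8 and 134.8 normalized reads in diploid and 865.2 and 1064 in tetraploid Col-0 (authors' deposited table, 2.63 ± 0.17). Its direction was a ground for reading the sign of the tables and is no separate result. RGL2, a DELLA repressor of gibberellin responses, rose by 1.16 ± 0.16 and MED12, a Mediator subunit whose mutants keep miR156 high, by 0.31 ± 0.11 with an adjusted p of 0.041 (authors' deposited table for Col-0). MED12 lost its call against the table's own spread (adjusted p = 0.38). AGL24, a MADS-box partner of SOC1, fell by 2.45 ± 0.32 and SVP, a partner of FLC, by 0.53 ± 0.12 in the same authors' deposited table. In Ler 1 of 17 was called in the authors' deposited table, beside 5.1% of all genes. This was TPS1, which makes the sugar signal that lowers miR156 (−0.35 ± 0.10, adjusted p = 0.023, and 0.18 against the table's own spread). FT, the mobile signal that acts with FD on SPL3, SPL4 and SPL5, was low, with a mean of 7.15 (Col-0) and 10.96 (Ler) normalized reads in the authors' deposited tables.

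Marker genes described the tissue. The 5 leaf markers had means from 65663 to 570856 normalized reads in the authors' deposited table for Col-0 and from 66200 to 619046 in that for Ler. In Col-0 LHCB1.1 was lower (−0.55 ± 0.06) and CAB3 higher (0.46 ± 0.06) in the authors' deposited table, and these chlorophyll-binding genes have near-identical copies, which makes them uncertain. Floral markers were near 0: the 8 listed in each table summed to 33.3 (Col-0) and 57.6 (Ler) normalized reads, and 8 and 6 of them had a mean under 10 in the authors' deposited tables. None of the floral markers or of the shoot meristem markers, which include STM (−0.45 ± 0.35 in Col-0 and −0.40 ± 0.31 in Ler), was called in the authors' deposited tables. No floral marker had an unadjusted DESeq2 p under 0.05, nor did a shoot meristem marker. Of the root markers SHR rose (0.47 ± 0.15, adjusted p = 0.015) and PYK10 fell (−0.61 ± 0.09, adjusted p = 2.1e-09) in Col-0 and SCR fell in Ler (−0.41 ± 0.10, adjusted p = 0.0036), in the authors' deposited tables. Of these, SHR and SCR lost their calls against each table's own spread (adjusted p = 0.25 and 0.061). The root marker COBL9 was near 0, with means of 1.42 (Col-0) and 1.92 (Ler) normalized reads. PLT1 and RHD6, also root markers, were listed for neither ecotype. The part of tissue makeup in the SPL values was not tested.

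For each called SPL gene, the 3 genes nearest to it in the pair of log2 fold changes were found among genes with a mean within 2-fold of its own in both tables. SPL4 had 445 such genes. The nearest was AT5G39030 (−1.66 in Col-0 and 0.82 in Ler in the authors' deposited tables, distance 0.29), then BIP3 (distance 0.51) and AT4G04630 (0.55). SPL13A had 4018, of which AT1G05030 (−1.01 and 0.05 in the authors' deposited tables), AT5G56100 and PUB25 were nearest, at 0.04 to 0.10. For SPL2 they were AT3G53380, MAP65-8 and HB22 of 3485, and for SPL11 AT3G01210, AT1G76350 and UGT73C6 of 5309, all within 0.05. This likeness rests on 2 fold changes per gene. For SPL4 the nearest distance was smaller than the standard errors of its own fold changes, 0.49 in Col-0 and 0.73 in Ler.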

How the data were processed

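Members and gene lists were chosen with earlier results of these data known. Per the submitters' processing notes, the tools were HISAT2, Subread and DESeq2 and the build was TAIR10. Whether strand was used in counting the labels do not say, and 16 chromatin libraries were not analysed. Each ecotype has 1 deposited table of the authors' DESeq2 comparison. Per the file headers it holds the mean normalized count, a signal averaged by the authors over 4 libraries, the authors' log2 fold change and its standard error on the log2 scale, the deposited Wald statistic, which is a score, and the deposited p-values, raw and Benjamini-Hochberg adjusted. The lowest mean with an adjusted p was 1.16 in Col-0 and 7.23 in Ler. The tables were normalized separately. Fold changes were read as tetraploid over diploid because tetraploid Col-0 is known for more FLC, and diploid Col-0 for little ESP and much ESM1. The use of ESP and ESM1 takes the tetraploid line to differ from diploid Col-0 in these genes. The FLC, ESP and ESM1 grounds all concern Col-0, and FLC was not called in the authors' deposited table for Ler (0.41 ± 0.29, adjusted p = 0.56). The Ler sign was taken to be the same with no ground of its own. Ler directions and the Ler minus Col-0 differences rest on it.

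The steps of the lowest means, each worth 1 read in 1 library, gave the 4 size factors of a table, and all genes at such a step shared the sign of fold change that placed the library by ploidy. A search over whole reads then solved each mean (relative tolerance 5e-15). For the 10 genes it used no fold change. For other genes with a mean from 10 to 1500 the deposited fold change narrowed it, and 99.4% of them in Col-0 and 99.5% in Ler gave a single solution. No count model was refitted, since the authors' test on all genes was at hand. A call is the authors' adjusted p under 0.05. The ecotype difference is the Ler fold change less that of Col-0 (log2), divided by its standard error from both tables, in a Wald test (two-sided) adjusted over 21361 shared identifiers. Scripts, run on simulated data as well, used Python 3.11.15, numpy 2.4.6, pandas 2.3.3 and scipy 1.17.1. Gene names and order were taken from RefSeq's TAIR10.1 annotation, where 98.7% (Col-0) and 98.5% (Ler) of identifiers were found. Named are all 10 genes, every gene of a list called in either table, every listed SPL target and AP2-like gene, and the 3 genes nearest to each called member. Genes of the SPL13A stretch, SPL13B, the SPL genes without a miR156 site, DCL1, SERRATE, FT and STM were added after their values were seen. Alternatives were no filter on low means, a minimum mean of 10, an empirical null, recentring on the median gene, genes tested in both tables only, and leaving out each library as a value with no test. The last, for the ecotype difference, was added after seeing the data.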

Additional observations from a re-analysis of the deposited data

Results flagged for a closer look

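The ploidy responses of SPL4 in Ler and Col-0 differed by 2.82 ± 0.88 (log2, Ler minus Col-0), past the threshold of the Wald test (adjusted p = 0.019), from a fall in Col-0 to a value above 0 in Ler that was not called. Those of SPL13A differed by 1.07 ± 0.35 (adjusted p = 0.030), and those of its copy SPL13B by 1.18 ± 0.39 (adjusted p = 0.032). None of the 3 differences kept its call against the spread of the difference statistics themselves (adjusted p = 0.16, 0.20 and 0.21). SPL10 was higher in both tetraploid Col-0 libraries and lower in both tetraploid Ler libraries, and its difference of −0.68 ± 0.28 did not pass adjustment (adjusted p = 0.12).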

How the results depend on the processing

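With no filter on low means, with a minimum mean of 10 and with recentring on the median gene, 3 SPL genes were called in Col-0, 1 in Ler and 2 in the ecotype difference, as reported. The difference also kept its count of 2 when adjusted only over genes that both tables tested. The statistics were wider than the theoretical null, by 1.44 times in Col-0, 1.23 times in Ler and 1.25 times for the difference. Each width was taken over all genes of the comparison, so it may hold ploidy responses as well as noise. Against an empirical null of that width 1 SPL gene was called in Col-0 (SPL13A, adjusted p = 0.046), 0 in Ler and 0 in the difference (unadjusted DESeq2 p under 0.05 in 3 SPL genes in Ler), where SPL2 gave 0.21, SPL4 0.075, SPL11 0.23 and the differences of SPL4 and SPL13A 0.16 and 0.20. Over all genes 1470 calls were left in Col-0 (of 3290), 418 in Ler (of 952) and 943 for the difference (of 1860). SPL13B (0.068), TOE2 (0.18), SNZ (0.062), SOC1 (0.25), DFR in Col-0 (0.37), MED12 (0.38), SHR (0.25), TPS1 (0.18), SCR (0.061) and the differences of SMZ (0.055), SNZ (0.074), SOC1 (0.17), SERRATE (0.14), DCL1 (0.23) and SPL13B (0.21) also lost their calls against it.

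No paired analysis was possible because the recovered libraries carry no replicate number. Leaving out 1 library gave medians of the 10 genes from −0.50 to −0.25 for Col-0 and −0.54 to −0.24 for Ler, and no called SPL gene changed its sign. Depth limits SPL3, SPL4 in Ler and SPL5, which had 9 to 50 reads per library. All directions rest on the inferred sign, which for Ler has no ground of its own here, and 2 libraries a group limit every standard error.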
